A study of Mus musculus with 24 samples.

Results

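The interferon alpha gene family was followed through dendritic cells that were grown from mouse bone marrow and given CpG-B, a synthetic DNA. The 10 genes were Ifna1, Ifna2, Ifna4, Ifna5, Ifna7, Ifna11, Ifna12, Ifna13, Ifna14 and Ifna16, taken as the family members whose accession on the array matched that symbol in a RefSeq gene table. They had 12 of the 55681 probes of the array, 2 each for Ifna2 and Ifna12, and all 10 were among the 20210 features tested. Bone marrow of C57BL/6 mice was cultured with human Flt3 ligand at 100 ng/ml for 9 days, and total RNA was hybridised to 24 Agilent arrays in 1 colour. The cells came from mice labelled Lyn/Irf5-DKO (DKO), Lyn-KO, Irf5-KO and WT, and each genotype was given CpG-B ODN at 150 nM for 6 h or was left unstimulated. This made 8 groups of 3 arrays, named by the study as biological triplicates. Whether each came from its own mouse is not stated, so p-values measure the spread between these samples.

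Type I interferons are secreted proteins that put the cells around them into an antiviral state. Interferon alpha exists as a cluster of similar genes, all of whose products signal through the same receptor, made of Ifnar1 and Ifnar2. Plasmacytoid dendritic cells, which grow in Flt3 ligand cultures, are known as the main source of interferon alpha when Toll-like receptor 9 meets DNA rich in CpG, and induction there runs through Myd88 and the transcription factor Irf7. Irf5 is another transcription factor of this pathway, and Lyn is a Src-family tyrosine kinase.

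All members sit in 1 cluster on chromosome 4, in which the RefSeq table (GRCm38.p6) also places Ifnb1, Ifnab, Ifnz, Ifne and further interferon alpha genes. A promoter sequence was given for 9 of the 10 members in the RefSeq table of the build GRCm38.p6, and Ifna7 was the exception. The 100 bases that end with a TATA-like motif, TATTTAA, are shown because they hold the stretch where interferon regulatory factors are known to bind in genes of this kind. Capitals mark a longer motif, 2 copies of GAAA with 2 bases between them, a tandem of the core that these factors recognise.
Ifna1: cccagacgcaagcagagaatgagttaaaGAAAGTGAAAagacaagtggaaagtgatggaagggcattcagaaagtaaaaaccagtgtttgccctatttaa
Ifna2: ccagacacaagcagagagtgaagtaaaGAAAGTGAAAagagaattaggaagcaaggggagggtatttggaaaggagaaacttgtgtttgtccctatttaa
Ifna4: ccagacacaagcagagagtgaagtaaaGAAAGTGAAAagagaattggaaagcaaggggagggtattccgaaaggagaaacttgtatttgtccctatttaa
Ifna5: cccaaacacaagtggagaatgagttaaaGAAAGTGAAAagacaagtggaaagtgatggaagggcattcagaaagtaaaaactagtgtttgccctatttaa
Ifna11: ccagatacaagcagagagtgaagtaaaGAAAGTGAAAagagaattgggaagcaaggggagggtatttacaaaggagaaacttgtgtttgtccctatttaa
Ifna12: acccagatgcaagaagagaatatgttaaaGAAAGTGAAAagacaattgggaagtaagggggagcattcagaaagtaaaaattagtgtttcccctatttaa
Ifna13: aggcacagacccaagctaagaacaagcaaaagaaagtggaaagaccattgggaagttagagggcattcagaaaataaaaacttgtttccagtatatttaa
Ifna14: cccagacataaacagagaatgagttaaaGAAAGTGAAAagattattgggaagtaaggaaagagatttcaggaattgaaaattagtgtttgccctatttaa
Ifna16: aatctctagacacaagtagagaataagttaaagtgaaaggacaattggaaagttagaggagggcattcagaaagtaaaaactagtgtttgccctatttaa

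The windows lay at chr4:88849894-88849993 (plus strand) for Ifna1, chr4:88683871-88683970 (minus strand) for Ifna2, chr4:88841671-88841770 (plus strand) for Ifna4, chr4:88835332-88835431 (plus strand) for Ifna5 and chr4:88819768-88819867 (plus strand) for Ifna11. For the remaining members they lay at chr4:88603402-88603501 (minus strand) for Ifna12, chr4:88644485-88644584 (minus strand) for Ifna13, chr4:88571892-88571991 (minus strand) for Ifna14 and chr4:88676942-88677041 (minus strand) for Ifna16. The longer motif was in the window of 7 of 9 members, on the plus strand of the gene and 64 to 66 bases before the first base of TATTTAA, and in all of these it read GAAAGTGAAA. Ifna13 and Ifna16 held no match to it on either strand of their 300-base promoters. Their windows held the shorter motif AANNGAAA in nearly the same place, as did the other 7, where it overlaps the longer one. Over both strands, 3.44% of 32851 mouse promoters of 300 bases held the longer motif, 23.9% held AANNGAAA and 4.51% held TATTTAA. These matches describe the letters in the window and were not tested as binding sites.

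**Figure D1:**
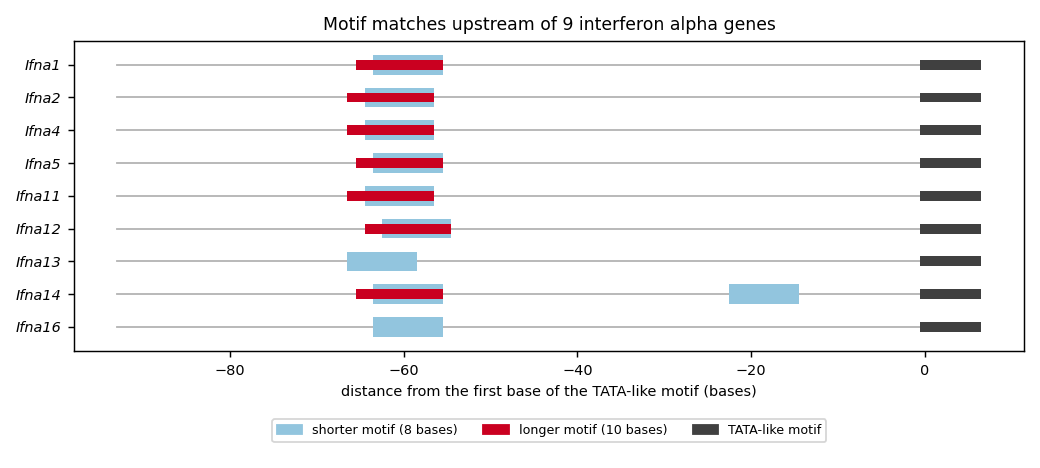
Positions of motif matches in the 100-base windows of 9 interferon alpha genes, by distance in bases from the first base of the TATA-like motif (grey). Red bars are matches to the longer motif, present in 7 of 9 genes and absent in Ifna13 and Ifna16, and blue bars are matches to the shorter motif, present in all 9.

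Levels below are the log2 of the processed signal minus the 75th percentile of the same array, so that a level of 0 equals that percentile, and changes are differences of such levels. Well above background is the mark that the scanner software gives a spot. It was given to 41.0% to 53.8% of non-control spots, depending on the array, and no spot was saturated. On the arrays labelled Lyn-KO and DKO, Lyn itself was lower, at -0.23 ± 0.00 in Lyn-KO with CpG-B against 2.21 ± 0.06 in WT with CpG-B (SD, n = 3 each). The Irf5 probe was not lower with CpG-B on the arrays labelled Irf5-KO, at 4.80 ± 0.24, than on WT arrays, at 4.16 ± 0.10 (SD, n = 3 each). Unstimulated, it was at 4.54 ± 0.02 in DKO, 4.83 ± 0.04 in Lyn-KO, 4.43 ± 0.05 in Irf5-KO and 4.73 ± 0.06 in WT cells (SD, n = 3 each), with no call between Irf5-KO and WT or between DKO and Lyn-KO. The sources used here do not say whether that probe lies in the deleted part of Irf5, so it does not check the labels, and Irf5-KO and DKO mean the arrays labelled so. Interferon alpha genes are close to each other in sequence and probe sequences were not used here, so a probe may also read transcripts of other members.

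With CpG-B, each of the 10 members was measured above background on the 3 arrays of every genotype. Unstimulated, few were: 1 member was well above background on all 3 DKO arrays, 0 on all 3 Lyn-KO arrays, 2 on all 3 Irf5-KO arrays and 3 on all 3 WT arrays. On no unstimulated array were 6 members in DKO, 5 in Lyn-KO, 5 in Irf5-KO and 4 in WT well above background. Ifna4, Ifna11, Ifna13 and Ifna16 were in that state in every genotype, and Ifna1, Ifna5, Ifna12 and Ifna14 reached it in none.

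**Figure D2:**
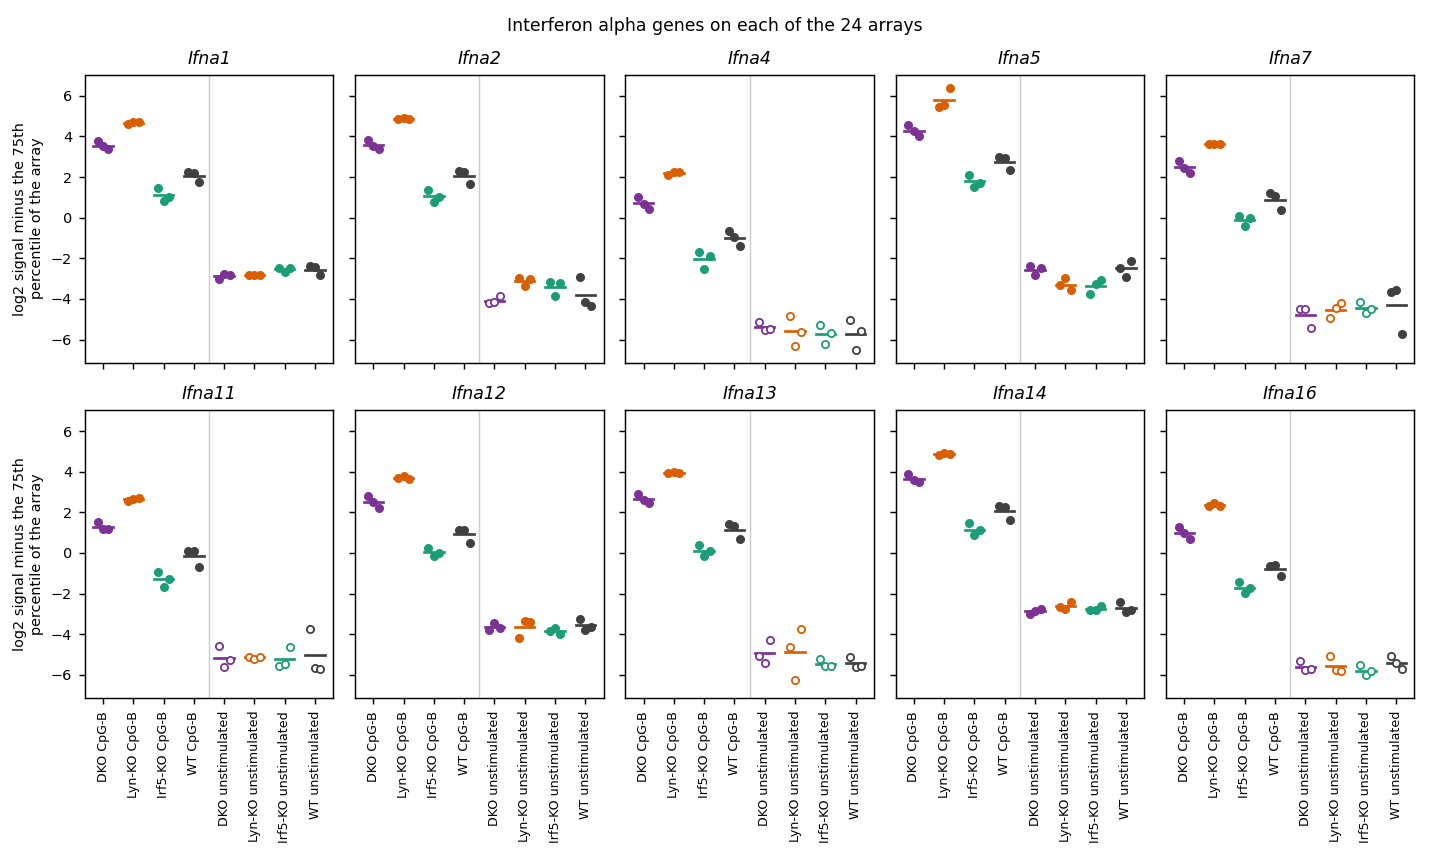
Level of each of the 10 interferon alpha genes on the 24 arrays, as log2 signal minus the 75th percentile of the array, by group. Points are arrays and lines are means of 3, and open points mark groups in which no array was well above background. With CpG-B the Lyn-KO arrays are the highest and the Irf5-KO arrays the lowest in every panel.

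CpG-B raised all 10 members in each genotype (limma, Benjamini-Hochberg adjusted p from 4.9e-18 to 6.66e-08). Features called higher made up 34.6% of all tested in DKO, 32.8% in Lyn-KO, 31.6% in Irf5-KO and 31.2% in WT. The fitted median over the members was 6.56 in DKO, 7.85 in Lyn-KO, 4 in Irf5-KO and 4.82 in WT, beside medians between -0.03 and 0.02 over all features. With unmeasured unstimulated groups set to the lowest signal that was well above background on each array, the medians were 6.12 in DKO, 7.44 in Lyn-KO, 3.85 in Irf5-KO and 4.70 in WT. Of these changes, 6 in DKO, 5 in Lyn-KO, 5 in Irf5-KO and 4 in WT are lower bounds for this reason.

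Ifna1, which was well above background on 2 or 3 unstimulated arrays of each genotype, gives the response without a bound. In Lyn-KO cells its level was 4.63, 4.71 and 4.69 with CpG-B, against -2.81, -2.82 and -2.84 unstimulated, a rise of 7.50 ± 0.15 (SE, adjusted p = 4.9e-18, limma) or 181-fold. In DKO cells it was 3.75, 3.52 and 3.38 with CpG-B, against -3.03, -2.77 and -2.81 unstimulated, or 85.5-fold. The rise was smaller in the genotypes that carry Lyn. Irf5-KO cells had 1.46, 0.84 and 1.03 with CpG-B, against -2.46, -2.66 and -2.47 unstimulated, or 12.5-fold, and WT cells had 2.26, 2.18 and 1.77 with CpG-B, against -2.39, -2.45 and -2.83 unstimulated, or 24.7-fold. In no genotype did the stimulated and unstimulated arrays overlap.

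Ifna13, whose promoter lacks the longer motif, had no unstimulated array well above background. It was at least 68.3-fold higher with CpG-B than unstimulated in DKO, at least 210-fold in Lyn-KO, at least 16.7-fold in Irf5-KO and at least 30.6-fold in WT cells. For Ifna16, the other member without that motif, the bounds were at least 21.6-fold in DKO, 74.9-fold in Lyn-KO, 4.68-fold in Irf5-KO and 7.96-fold in WT. Ifna4, which has the motif, gave bounds of 17.8-fold in DKO, 67-fold in Lyn-KO, 3.70-fold in Irf5-KO and 6.88-fold in WT. Ifna11 gave 26.5-fold in DKO, 91.4-fold in Lyn-KO, 6.25-fold in Irf5-KO and 12.4-fold in WT. The probes of members with and without the longer motif thus both rose in every genotype. A probe may also read other members, and the part of the motif was not tested.

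Loss of Lyn went with higher levels of the whole family under CpG-B. All 10 members were higher in Lyn-KO than in WT cells given CpG-B, by 2.60 to 3.20 with a median of 2.80 or 6.96-fold (limma adjusted p from 8.89e-10 to 7.63e-05), where 13.9% of all features were called higher and the median over all features was 0.05. Within the 3 slides, each of which held 1 array of every group, the median over the members was 2.50, 2.66 and 3.28. The mean level over the 10 members was 3.80, 3.89 and 3.93 on the Lyn-KO arrays, against 1.25, 1.17 and 0.57 on the WT arrays. WT replicate 3 was the lowest WT array for each member, and the Lyn-KO arrays lay close together. In these bulk samples, fewer cells of a type and less RNA per cell cannot be told apart.

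Ifna2, well above background on all of these arrays, had 4.84, 4.92 and 4.84 in Lyn-KO cells with CpG-B, against 2.31, 2.24 and 1.66 in WT cells with CpG-B. Ifna14 had 4.83, 4.94 and 4.86 in Lyn-KO cells, against 2.33, 2.24 and 1.62 in WT cells. Ifna12 had 3.69, 3.78 and 3.66 in Lyn-KO cells, against 1.14, 1.14 and 0.48 in WT cells. The lowest Lyn-KO array exceeded the highest WT array for all 10 members, and the share of all features for which this held was not counted. Ifna7 had 3.61, 3.63 and 3.64 in Lyn-KO cells, against 1.22, 1.07 and 0.36 in WT cells. Ifna4 had 2.12, 2.24 and 2.23 in Lyn-KO cells, against -0.68, -0.93 and -1.40 in WT cells. Ifna5 differed from the others in its spread, with 5.47, 5.54 and 6.40 in Lyn-KO cells, against 2.97, 2.92 and 2.35 in WT cells, so that Lyn-KO replicate 3 stood above the other Lyn-KO arrays. For the other 9 members the SD over the Lyn-KO arrays was between 0.02 and 0.08, while for Ifna5 it was 0.52.

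The same direction held in cells labelled as lacking Irf5. All 10 members were higher in DKO than in Irf5-KO cells given CpG-B, by 2.44 to 2.77 with a median of 2.53 or 5.78-fold (limma adjusted p from 1.18e-09 to 0.000104), where 18.1% of all features were called higher. The median over the members was 2.49, 2.76 and 2.35 within the slides. The family mean was 2.83, 2.54 and 2.34 on the DKO arrays, against 0.31, -0.29 and 0.01 on the Irf5-KO arrays. Against WT, all 10 members were also higher in DKO cells, by 1.44 to 1.79 with a median of 1.56 or 2.94-fold, where 24.9% of all features were called higher, and the slide medians were 1.57, 1.35 and 1.81.

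Ifna16 shows these 3 genotypes on 1 scale. Its level with CpG-B was 1.29, 1.00 and 0.70 in DKO cells, against -1.44, -1.98 and -1.73 in Irf5-KO cells and -0.66, -0.58 and -1.14 in WT cells. For Ifna13 the levels were 2.89, 2.60 and 2.47 in DKO cells, against 0.39, -0.14 and 0.10 in Irf5-KO cells and 1.45, 1.31 and 0.68 in WT cells. The DKO arrays did not overlap with either of the other groups for any member, and the share of all features without overlap was not counted.

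Cells labelled Irf5-KO had lower levels of the family than WT cells, by a smaller margin. With CpG-B, 8 of 10 members were lower, and the change over all 10 was -1.15 to -0.89 with a median of -0.98, or 0.509 times the WT level, where 11.1% of all features were called lower and the median over all features was 0.02. Ifna7, at -0.99 ± 0.42 (SE, adjusted p = 0.0973, limma), and Ifna13, at -1.03 ± 0.42 (SE, adjusted p = 0.0827, limma), were not called. The slide medians were -0.91, -1.42 and -0.58. The count depended on single arrays, and 4 members were called without WT replicate 1, without WT replicate 2 or without Irf5-KO replicate 2 of the CpG-B arrays, with medians of -0.86, -0.90 and -0.83. In each of these 3 fits Ifna2, Ifna4, Ifna5 and Ifna11 lost the call.

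Ifna1 was called in the Irf5-KO cells by the smallest p of the family, with 1.46, 0.84 and 1.03 in Irf5-KO cells, against 2.26, 2.18 and 1.77 in WT cells, a change of -0.96 ± 0.15 (SE, adjusted p = 9.19e-05, limma). Ifna11 had -0.95, -1.67 and -1.28 in Irf5-KO cells, against 0.12, 0.09 and -0.67 in WT cells, a change of -1.15 ± 0.41 (SE, adjusted p = 0.0448, limma). In both the highest Irf5-KO array lay below the lowest WT array, which was so for all 10 members. How many of all features had this was not counted. Ifna5 had 2.12, 1.52 and 1.72 in Irf5-KO cells, against 2.97, 2.92 and 2.35 in WT cells. Ifna4 had -1.71, -2.55 and -1.90 in Irf5-KO cells, against -0.68, -0.93 and -1.40 in WT cells.

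On a background without Lyn, the family was lower where Irf5 was also labelled as lost. All 10 members were lower in DKO than in Lyn-KO cells given CpG-B, with changes of -1.52 to -1.12 and a median of -1.29, or 0.410 times the Lyn-KO level (limma adjusted p from 1.17e-05 to 0.0432), where 14.7% of all features were called lower. Ifna5 had 4.54, 4.29 and 4.02 in DKO cells, against 5.47, 5.54 and 6.40 in Lyn-KO cells. Ifna7 had 2.80, 2.43 and 2.18 in DKO cells, against 3.61, 3.63 and 3.64 in Lyn-KO cells, a change of -1.16 ± 0.42 (SE, adjusted p = 0.0432, limma). The highest DKO array lay below the lowest Lyn-KO array for each member, and the share of all features with this was not counted. The slide medians were -0.98, -1.36 and -1.47. Ifna7 and Ifna13 lost the call on leaving out any of 5 of the 6 arrays, with adjusted p between 0.0525 and 0.129 (limma), and 8 members were then called.

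**Figure D3:**
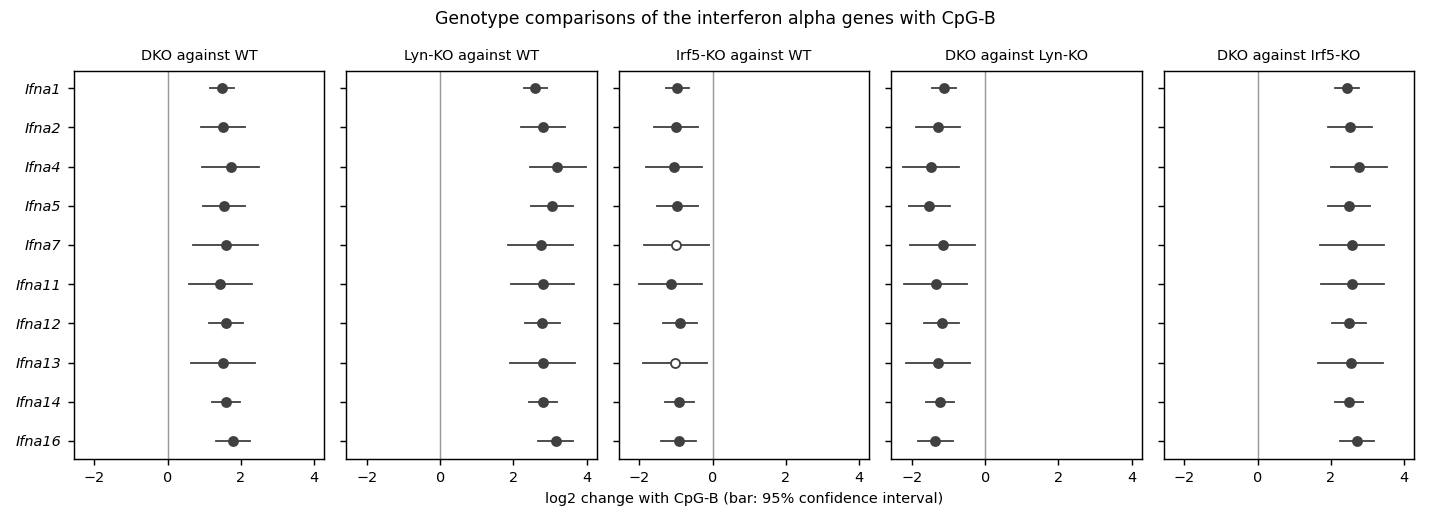
Log2 change of each interferon alpha gene with CpG-B in 5 genotype comparisons, named as the first genotype against the second, with 95% confidence intervals of the limma fit. Filled points were called at an adjusted p of 0.05. All points lie above 0 for DKO against WT, Lyn-KO against WT and DKO against Irf5-KO, and below 0 for the other 2, where Ifna7 and Ifna13 are open in Irf5-KO against WT.

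Put in order, the levels with CpG-B were highest in Lyn-KO, then in DKO, then in WT and lowest in Irf5-KO cells for all 10 members, with no overlap between neighbouring groups. Over all 20210 features, 81 (0.401%) had this order without overlap. For single pairs of groups that share was not counted, so the pairwise statements above describe the members alone. The ends of that order, Lyn-KO against Irf5-KO, differed by 3.57 to 4.25 with a median of 3.82 or 14.1-fold, with all 10 members called higher and 17.5% of all features. In unstimulated cells no member was called in any of 5 genotype comparisons (limma). The unadjusted p was under 0.05 for 1 member in Irf5-KO against WT, 2 in Lyn-KO against WT, 0 in DKO against WT, 2 in DKO against Lyn-KO and 3 in DKO against Irf5-KO. Features called in either direction made up 0.737% in Irf5-KO against WT, 4.58% in Lyn-KO against WT, 6.78% in DKO against WT, 0.163% in DKO against Lyn-KO and 5.35% in DKO against Irf5-KO. Most members were at background there, so differences between unstimulated genotypes were largely not detectable.

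The change with CpG-B was also compared between genotypes as a difference of responses. Ifna4, Ifna11, Ifna13 and Ifna16 had no unstimulated array well above background in any genotype and Ifna7 had 1, in WT, so for these the difference was not read, and the counts cover members measured on at least 1 array of both unstimulated groups. In Lyn-KO against WT those were Ifna1, Ifna2, Ifna5, Ifna12 and Ifna14, and the change was larger in Lyn-KO for all 5, by 2.11 to 3.85, where 6.04% of all features were called higher. In DKO against WT they were Ifna1, Ifna5, Ifna12 and Ifna14, and it was larger in DKO for all 4, by 1.59 to 1.79, where 17.3% of all features were called higher. In Irf5-KO against WT it was smaller for 3 of 5, Ifna1, Ifna2 and Ifna14, by -1.39 to -0.88, where 5.16% of all features were called lower. Ifna5 was at -0.09 and Ifna12 at -0.61 there, with no call. Ends of these ranges rest in part on arrays not well above background. Ifna2, at 2.11 and -1.39, was well above background on 1 unstimulated WT array. Ifna5, at 3.85, was so on 1 unstimulated Lyn-KO array.

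The Lyn effect with and without Irf5 was compared by taking the difference between Lyn-KO and WT minus the difference between DKO and Irf5-KO with CpG-B. No member was called, with values of 0.16 to 0.56, a median of 0.30 and 0 members at an unadjusted p under 0.05 (limma), where 1.97% of all features were called higher and 1.64% lower. The narrowest interval was that of Ifna1, 0.16 with a 95% confidence interval of -0.29 to 0.61, and the widest was that of Ifna7, 0.17 with -1.08 to 1.42. These intervals allow a difference of up to 1.52 (Ifna4) between the Lyn effects with and without Irf5. The slides differed here, with medians of 0.07, -0.08 and 0.96. Slide 3 holds the low WT array, and without WT replicate 3 of the CpG-B arrays the median was 0.08.

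**Figure D4:**
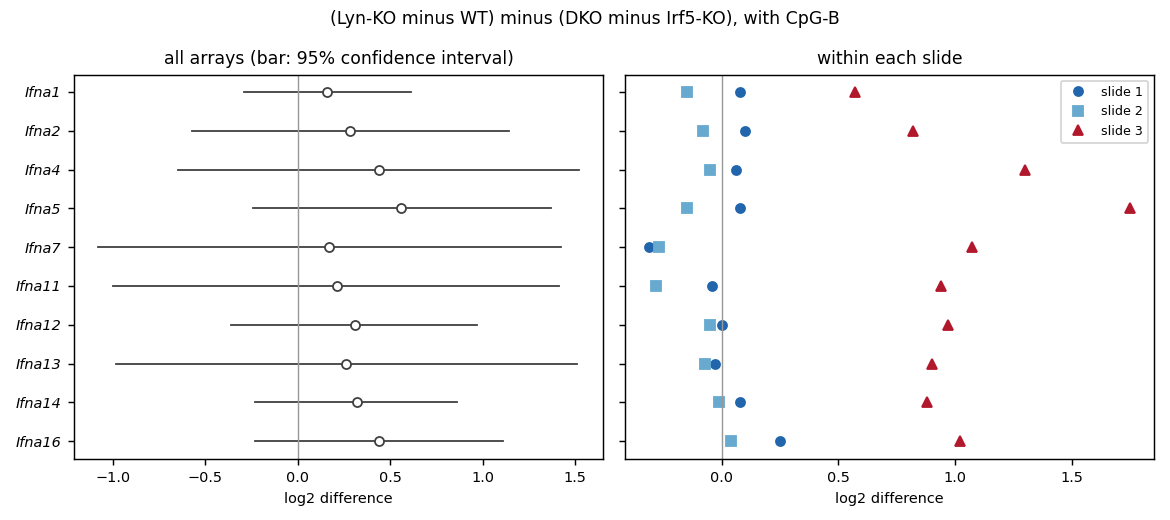
Difference between the Lyn-KO effect in cells with Irf5 (Lyn-KO minus WT) and in cells labelled as lacking it (DKO minus Irf5-KO), with CpG-B, in log2 units. The left panel gives the fit over all arrays with 95% confidence intervals, each of which spans 0, and the right panel gives the value within each slide, where slide 3 lies above slides 1 and 2 for every gene.

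Ifna2 and Ifna12 each had a second probe, which allows a comparison within a gene. All members changed by similar amounts and a probe may read other members, so like changes do not show which gene was read. In Lyn-KO against WT with CpG-B the probes gave 2.80 ± 0.29 and 2.92 ± 0.38 for Ifna2, and 2.79 ± 0.22 and 2.90 ± 0.52 for Ifna12 (SE). In Irf5-KO against WT they gave -1 ± 0.29 and -0.96 ± 0.38 for Ifna2, and -0.89 ± 0.22 and -1.13 ± 0.52 for Ifna12 (SE). Genotype changes were thus close between probes, although with every probe tested on its own the second probe of Ifna2 (adjusted p = 0.0736, limma) and that of Ifna12 (adjusted p = 0.13, limma) were not called in Irf5-KO against WT. In DKO against Lyn-KO the second probe of Ifna12 was not called either (adjusted p = 0.0568, limma). Levels differed between the Ifna2 probes, at 2.07 and -0.75 in WT cells with CpG-B. The fitted CpG-B response of Ifna12 in Lyn-KO cells differed between its probes, at 7.35 ± 0.22 and 10.09 ± 0.52 (SE), where the second probe was well above background on 0 unstimulated Lyn-KO arrays.

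Across the 12 arrays with CpG-B, each member followed the family mean, of which it is a part, with Pearson correlations of 0.9913 for Ifna5 and 0.9985 to 0.9997 for the other 9. Being part of the mean raises a member's correlation, and a probe that reads other members would raise it too. The arrays fall into 4 groups and share 3 slides, so the correlations describe this set of arrays. Of the 12649 named features, 251 had a correlation above 0.9 with the family mean. The 8 named genes outside the family with the highest values were Clcn2 (0.9936), a chloride channel, Atp1b1 (0.9853), a subunit of the sodium pump, Pir (0.9850), Zc3h12c (0.9845), a CCCH zinc finger protein, Niban3 (0.9840), Ly6g5b (0.9825), Gpm6b (0.9821) and Gmfb (0.9807). With CpG-B, Pir was well above background on 0 Irf5-KO arrays and 2 WT arrays, so its correlation rests in part on unmeasured values.

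The change with CpG-B differed among these 8 genes. Clcn2 averaged -0.02 ± 0.09 in DKO, 1.22 ± 0.18 in Lyn-KO, -2.71 ± 0.14 in Irf5-KO and -1.60 ± 0.48 in WT cells with CpG-B (SD, n = 3 each). CpG-B raised Clcn2 in DKO and Lyn-KO cells, by 1.20 ± 0.18 and 2.55 ± 0.18, and lowered it in Irf5-KO cells, by -1.07 ± 0.18, while in WT cells the change was 0.06 ± 0.18 (SE, adjusted p = 0.771, limma). Atp1b1 fell with CpG-B in all 4 genotypes, by -3.77 ± 0.14 in DKO, -2.86 ± 0.14 in Lyn-KO, -4.77 ± 0.14 in Irf5-KO and -4.13 ± 0.14 in WT cells (SE). Niban3 rose with CpG-B in DKO, Lyn-KO and WT cells, by 2.94 ± 0.15, 3.19 ± 0.15 and 1.24 ± 0.15, and was at 0.10 ± 0.15 in Irf5-KO cells with no call (SE). Ly6g5b rose in the same 3 genotypes, by 1.82 ± 0.24, 2.60 ± 0.24 and 0.95 ± 0.24, and was at 0.09 ± 0.24 in Irf5-KO cells with no call (SE).

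Of 11 other interferon genes, 5 were tested, Ifne did not pass the filter on dim probes, and no probe was matched to the other 5. Ifnab, a further alpha-type gene of the cluster, had 4.43, 4.12 and 3.93 in DKO cells with CpG-B, 5.29, 5.46 and 5.42 in Lyn-KO, 1.83, 1.34 and 1.56 in Irf5-KO and 2.75, 2.75 and 2.18 in WT cells. Its order of groups was that of the members. Ifnb1, the gene of interferon beta and a neighbour in the cluster, had 2.93, 2.77 and 2.74 in DKO cells, 4.99, 5.05 and 5.07 in Lyn-KO, 0.30, -0.21 and 0.15 in Irf5-KO and 2.47, 2.51 and 1.97 in WT cells. Here the DKO arrays stood only slightly above the WT arrays.

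For Ifnb1, Irf5-KO cells were at -2.24 ± 0.25 against WT (SE, adjusted p = 1.92e-06, limma) and DKO cells at -2.23 ± 0.25 against Lyn-KO (SE), both called lower, where the members gave -1.15 to -0.89 and -1.52 to -1.12. A test between genes was not made, since these are different probes. In Lyn-KO against WT, Ifnb1 changed by 2.72 ± 0.25 (SE), within the range of the members. Against WT, DKO cells gave 0.49 ± 0.25 for Ifnb1 (SE, adjusted p = 0.12, limma), which was not called and was called after normexp background correction with quantile normalisation (0.47, adjusted p = 0.012, limma). Ifnl3, of the lambda interferons, had the same order of group means, at 2.98 ± 0.10 in DKO, 3.52 ± 0.06 in Lyn-KO, 2.28 ± 0.13 in Irf5-KO and 2.87 ± 0.35 in WT cells with CpG-B (SD, n = 3 each). DKO against WT was not called for Ifnl3, at 0.11 ± 0.12 (SE, adjusted p = 0.495, limma), and those groups overlapped. Ifng, the type II interferon, did not pass the test in Lyn-KO against WT, at 0.11 ± 0.26 (SE).

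The gene of Irf7, the factor that drives interferon alpha genes, reached overlapping levels in all genotypes with CpG-B, with 6.82, 6.89 and 6.62 in DKO, 6.76, 6.64 and 6.38 in Lyn-KO, 6.6, 6.46 and 6.72 in Irf5-KO and 6.80, 6.59 and 6.36 in WT cells. The groups overlapped, and the change was 0.01 (95% confidence interval -0.41 to 0.43) in Lyn-KO against WT and 0.01 (-0.41 to 0.43) in Irf5-KO against WT. Irf8, a factor of dendritic cell identity, was called with CpG-B in the direction of the members in these comparisons, at 0.81 ± 0.09 in Lyn-KO against WT, -1.50 ± 0.09 in Irf5-KO against WT and -0.65 ± 0.09 in DKO against Lyn-KO (SE). Unlike for the members, most of the rise in Lyn-KO over WT was thus absent in DKO cells. Over the list of 24 genes for sensing of CpG DNA and induction of interferon, which includes Irf5 and Lyn, 8 were higher and 4 lower in Lyn-KO against WT with CpG-B (median 0.08), beside 13.9% of all features higher and 11.2% lower. In Irf5-KO against WT 5 were higher and 4 lower (median 0.05), beside 14.4% of all features higher and 11.1% lower. Among these, Unc93b1, which carries Toll-like receptors to endosomes, was at 0.37 ± 0.06 and the endosomal transporter gene Slc15a4 at 0.41 ± 0.08 in Lyn-KO against WT (SE).

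Genes downstream of the interferon receptor were compared in the same groups. All 28 tested of 30 interferon-stimulated genes rose with CpG-B in each genotype, with medians of 6.03 in DKO, 5.72 in Lyn-KO, 5.53 in Irf5-KO and 5.03 in WT. Lyn-KO cells with CpG-B, in which all 10 members were higher than in WT, had 1 of 28 higher (Bst2) and 1 lower (Ifih1), with a median of -0.07. Of all features, 13.9% were called higher and 11.2% lower there. Irf5-KO against WT gave 2 of 28 higher and 0 lower (median 0.07), beside 14.4% of all features higher. DKO against WT gave 3 higher and 0 lower (median 0.14), beside 24.9% of all features higher. DKO against Lyn-KO gave 5 higher and 0 lower (median 0.21), where 16.8% of all features were called higher, a share close to that of the list. Isg15, a ubiquitin-like antiviral protein gene, had 9.82, 10.12 and 10.04 in DKO, 9.93, 10.11 and 10.12 in Lyn-KO, 9.91, 9.95 and 9.80 in Irf5-KO and 9.95, 9.96 and 10.28 in WT cells with CpG-B. The genotypes overlapped for Isg15, while for every interferon alpha gene they were apart.

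With only the groups of a comparison in the fit, the higher interferon-stimulated genes with CpG-B numbered 7 in Irf5-KO against WT, 10 in DKO against WT and 10 in DKO against Lyn-KO. Over all features, calls in either direction numbered 3671, 7866 and 4929 in these fits, against 5154, 9061 and 6374 in the main fit. The higher interferon-stimulated genes numbered 0 in Irf5-KO against WT after quantile normalisation and without the filter on dim probes. They also numbered 0 on leaving out any 1 of the 6 CpG-B arrays compared. In DKO against Lyn-KO they numbered 2 without the first DKO array, and 3 without the third Lyn-KO array, without the third DKO array or after quantile normalisation. Quantile normalisation gave 1 in DKO against WT. Of the 12 genes of the receptor and its signalling, 1 was higher and 1 lower in Lyn-KO against WT with CpG-B: Ptpn6, a phosphatase of this pathway, at 0.51 ± 0.05, and Jak1, a kinase of the receptor, at -0.64 ± 0.06 (SE). These counts stand beside 13.9% of all features higher and 11.2% lower. In DKO against Lyn-KO 4 of these 12 genes were higher and 1 lower, the last being Socs3, an inhibitor of cytokine signalling, at -1.03 ± 0.18 (SE). There, 16.8% of all features were called higher and 14.7% lower.

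**Figure D5:**
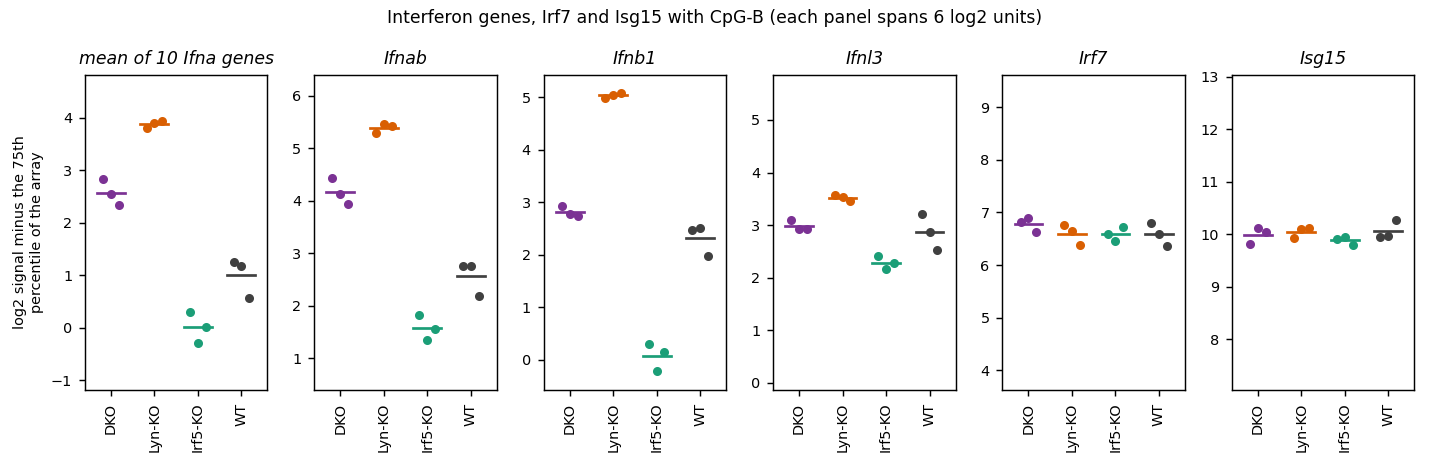
Levels with CpG-B of the mean of the 10 interferon alpha genes, of the interferon genes Ifnab, Ifnb1 and Ifnl3, and of Irf7 and Isg15, as log2 signal minus the 75th percentile of the array. Points are arrays, lines are means of 3, and each panel spans 6 log2 units. The genotypes are apart for the interferon alpha mean and overlap for Irf7 and Isg15.

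Unstimulated cells gave a different picture for the interferon-stimulated genes. In Lyn-KO against WT, 21 of 28 were lower and 1 was higher (median -0.94), where 2.75% of all features were called lower, and none of the 10 interferon alpha genes was called. Usp18, which curbs receptor signalling, was at -1.25 ± 0.24 and the antiviral gene Rsad2 at -1.87 ± 0.28 (SE). With only these 2 groups in the fit 3 were lower, with the same median, and leaving out single arrays gave 18 to 23. Irf7 was at 0.37, 0.04 and 0.02 in unstimulated Lyn-KO cells, against 1.16, 0.80 and 0.08 in WT cells, which overlapped. With all groups in the fit, unstimulated Irf5-KO against WT gave 3 of 28 lower and 0 higher (median -0.54). DKO against WT gave 19 lower and 1 higher (median -0.79), and DKO against Irf5-KO 6 lower and 1 higher (median -0.35). Of all features, 0.737%, 6.78% and 5.35% were called in either direction in these 3 comparisons, in that order. Summed linear levels of the 28 genes were 175 to 254 in WT, 160 to 166 in Irf5-KO, 155 to 173 in Lyn-KO and 150 to 201 in DKO cells. Medians below WT were thus not confined to genotypes without Lyn.

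Markers of the cell types in the culture moved with the genotypes too. Of 12 plasmacytoid dendritic cell markers, 11 were tested, and 7 were higher and 0 lower in Lyn-KO against WT with CpG-B (median 0.42), 7 higher and 0 lower in DKO against Irf5-KO (median 0.57), 0 higher and 4 lower in Irf5-KO against WT (median -0.06), and 1 higher and 3 lower in DKO against Lyn-KO (median 0.01). Over all features, 13.9% were called higher and 11.2% lower in Lyn-KO against WT, and 18.1% and 14.9% in DKO against Irf5-KO. The shares were 14.4% and 11.1% in Irf5-KO against WT, and 16.8% and 14.7% in DKO against Lyn-KO. The summed linear level of the 11 markers, relative to the 75th percentile of the array, was 1000 to 1110 in DKO, 1020 to 1140 in Lyn-KO, 690 to 742 in Irf5-KO and 726 to 782 in WT cells with CpG-B. The summed level of the 10 interferon alpha genes was 68.2 to 94.3 in DKO, 181 to 225 in Lyn-KO, 11.5 to 17.2 in Irf5-KO and 20.5 to 32.2 in WT cells with CpG-B. Bst2 is among both these markers and the interferon-stimulated genes, so it is counted in both lists and in the summed marker level. It is 1 of the 7 markers higher in Lyn-KO against WT. The part of these markers in the family's levels was not tested.

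Tcf4, the factor that sets plasmacytoid identity, had 6.01, 5.99 and 6.18 in DKO, 6.41, 6.42 and 6.71 in Lyn-KO, 5.53, 5.40 and 5.53 in Irf5-KO and 5.91, 5.87 and 5.69 in WT cells with CpG-B, in the same order of groups as the family. Spib, another factor of these cells, was at 0.71 ± 0.08 in Lyn-KO against WT and -0.49 ± 0.08 in Irf5-KO against WT, and Ly6d was at 0.97 ± 0.10 in Lyn-KO against WT (SE). Siglech, a surface marker of plasmacytoid cells, was not called in Lyn-KO against WT (0.24, 95% confidence interval -0.02 to 0.50) or in Irf5-KO against WT (0.03, -0.23 to 0.29). Of 9 B cell markers, 0 were higher and 5 lower in Lyn-KO against WT, and 0 higher and 9 lower in DKO against Irf5-KO with CpG-B, where 11.2% and 14.9% of all features were called lower. Their summed level was 12.2 to 13.6 in DKO, 16.8 to 18.1 in Lyn-KO, 45.0 to 54.6 in Irf5-KO and 35.8 to 38.0 in WT cells. Of 7 macrophage and monocyte markers, 5 were higher and 0 lower in Irf5-KO against WT (median 0.78) and in DKO against Lyn-KO (median 0.74), and 0 higher and 1 lower in Lyn-KO against WT (median -0.04), all with CpG-B. They summed to 42.2 to 60.9 in DKO, 24.9 to 28.7 in Lyn-KO, 44.7 to 51.6 in Irf5-KO and 25.7 to 27 in WT cells. Beside these counts, 14.4% of all features were called higher in Irf5-KO against WT and 16.8% in DKO against Lyn-KO, and 11.2% were called lower in Lyn-KO against WT. Of 5 basophil and mast cell markers 4 were tested, and all 4 were higher in DKO against Lyn-KO (median 1.51) and in DKO against Irf5-KO (median 1.83), while 1 was lower and 0 higher in Lyn-KO against WT (median -0.59) and in Irf5-KO against WT (median -0.89). Their sums were 3.71 to 5.13 in DKO, 1.41 to 1.85 in Lyn-KO, 1.28 to 1.58 in Irf5-KO and 1.82 to 2.51 in WT cells. Of all features, 16.8% were called higher in DKO against Lyn-KO and 18.1% in DKO against Irf5-KO. The shares called lower were 11.2% in Lyn-KO against WT and 11.1% in Irf5-KO against WT. The 7 neutrophil markers summed to 22.2 to 52.2 in DKO, 39.9 to 45.2 in Lyn-KO, 48.4 to 67.1 in Irf5-KO and 60.7 to 67.2 in WT cells, with 1 higher and 5 lower in DKO against WT (median -1.15). There, 9061 of all 20210 features were called in either direction, and 24.9% were called higher. The part of these cell types in the family's levels was not tested either. Conventional dendritic cell markers summed to 1230 to 1430 in DKO, 1180 to 1370 in Lyn-KO, 1170 to 1260 in Irf5-KO and 1140 to 1180 in WT cells with CpG-B. The 3 tested T cell markers summed to 4.36 to 5.07 in DKO, 4.46 to 5.83 in Lyn-KO, 5.59 to 6.77 in Irf5-KO and 6.65 to 8.16 in WT cells with CpG-B. For these cell types, too, the part in the family's levels was not tested.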

How the data were processed

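Total RNA was labelled with Cy3 and hybridised in 1 colour, per the labels. Per the file headers, each deposited array file gives an intensity per spot, the processed signal from version 10.7.3.1 of the Feature Extraction software. A deposited series table gives log2 values, centred per probe as its values show (column medians -0.273 to 0.375), and was an alternative; 95% of its differences between arrays lay within 0.0238 of those computed here, in the same direction.

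From 59305 non-control spots an array, 4351 values marked as outliers were dropped in all. Log2 intensity minus the 75th percentile of its array (302.7 to 567.7) was averaged over spots of a probe. Accessions matched to a RefSeq gene table (GRCm38.p6) named 26762 of 55681 probes. The files annotate probes to mm9, so coordinates are those of RefSeq sequences alone. A probe had to be well above background on the 3 arrays of some group (26642 were), and the brightest probe stood for a gene, leaving 20210 features with 18 missing values. The number of arrays limits the precision.

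One fit in limma 3.58.1 (R 4.3.3) with a mean for each of the 8 groups gave 19 contrasts, 2-sided, adjusted by Benjamini-Hochberg over all features, with calls under 0.05. The fit was tested on simulated data. Genes named are the members, those of the lists (other interferons, receptor signalling, sensing of CpG DNA, interferon-stimulated genes, cell type markers) and the 8 most correlated with the family mean. The members and lists were chosen with earlier results of these data known.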

Additional observations from a re-analysis of the deposited data

Results flagged for a closer look

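The change with CpG-B differed from that in WT cells for several members, by a test of the difference between responses (limma interaction term, adjusted p under 0.05). The counts cover the members measured well above background on at least 1 array of both unstimulated groups, which leaves out Ifna4, Ifna7, Ifna11, Ifna13 and Ifna16 in each comparison and Ifna2 in DKO against WT. In Lyn-KO cells the change was larger for 5 of 5 such members, by 2.11 to 3.85. In DKO cells it was larger for 4 of 4, by 1.59 to 1.79. In Irf5-KO cells it was smaller for 3 of 5, with differences of -1.39 to -0.88. Ifna2, at 2.11 and -1.39, was well above background on only 1 unstimulated WT array, and Ifna5, at 3.85, on only 1 unstimulated Lyn-KO array. Groups of 3 arrays are too small for a test of single outlying arrays.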

How the results depend on the processing

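No called member result changed direction under quantile normalisation, normexp with quantile normalisation, scaling to another reference level, no filter on dim probes, only the groups of the contrast, the replicate block, a variance prior with a trend, the deposited series table or leaving out each array. The replicate block changed the call of 0 of 190 member results, and with the replicate block 8 members were again lower in Irf5-KO against WT with CpG-B. The numbers were not taken as pairs in the main fit, since the lowest correlations of same-numbered deviations were -0.075, -0.055 and -0.084. Their medians were 0.086, 0.044 and 0.035 and their highest values 0.281, 0.293 and 0.214, against a median of -0.03 between different numbers. Same-numbered arrays were thus slightly more alike by the median. Each number is also a slide, and the part of the slide in this was not tested. Over all features the block gave more calls in each contrast, such as 5734 against 5154 in Irf5-KO against WT with CpG-B. Requiring every array to be well above background left 0 members, so no value was given. The count over all 10 members, unmeasured unstimulated levels included, with a smaller CpG-B response in Irf5-KO than in WT, 3, was 5 after quantile normalisation, 9 after normexp, 1 without the filter and 1 with only the groups of the contrast. For the Lyn effect with against without Irf5 it was 1 (Ifna4) after normexp. The cause was not tested. Normexp also gave smaller CpG-B responses, with medians of 4.67 in DKO, 5.79 in Lyn-KO, 2.42 in Irf5-KO and 3.29 in WT, below the bounds, which hold for the main processing alone.

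Leaving out each array gave 4 to 8 members in Irf5-KO against WT with CpG-B, 8 to 10 in DKO against Lyn-KO, 1 to 4 for the changed response in Irf5-KO, 9 to 10 in Lyn-KO, 7 to 9 in DKO, and 0 to 1 in Lyn-KO against WT and in DKO against WT unstimulated. Gmfb in DKO against WT with CpG-B turned to -0.04 after normexp, and the receptor list in Lyn-KO against Irf5-KO gave 5 calls, 3 higher and 2 lower, with only the groups of the contrast. Over all features, calls in unstimulated cells numbered 149 in Irf5-KO against WT (74 without the filter, 1 with only the groups of the contrast), 925 in Lyn-KO against WT (608, 321), 1370 in DKO against WT (900, 529) and 33 in DKO against Lyn-KO (21, 0, and 52 after quantile normalisation). The changed response in Lyn-KO gave 2236 calls and 1395 without the filter, and the Lyn effect with against without Irf5 gave 730, 351 without the filter and 304 with only the groups of the contrast. Without the filter the median of all features moved by -0.122 to 0.133 in 4 comparisons with CpG-B. Unmeasured unstimulated levels and 3 arrays per group limit the precision.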
